A study of Mus musculus with 20 samples.

Results

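Gas5, Snhg1, Snhg3, Snhg5, Snhg6, Snhg8 and Snhg12 are long noncoding genes of the mouse that carry small nucleolar RNAs (snoRNAs) within them. These 7 genes were taken by symbol from 22332 genes that appeared in at least 1 of the chromatin RNA files. They were chosen by name with results of these data in view. The chromatin RNA levels are taken here as the values that chose them, with no stated threshold, and are given as a description, without a test. The series measured open chromatin by ATAC-seq, RNA held on chromatin by ChrRNA-seq, and the methylated adenosine m6A on that RNA by Chrm6A-seq. All cells were of strain C57BL/6 and carried either intact Mettl3 (wild type, WT) or a knockout of it (KO), the gene of the enzyme that writes most m6A on messenger RNA. Embryonic stem cells (ESC) of each genotype were set against cultures differentiated from ESC towards cardiomyocytes (CM) by way of embryoid bodies in a medium with ascorbic acid. Each of the 4 groups had 3 ATAC-seq libraries, 1 ChrRNA-seq library and 1 Chrm6A-seq list. The sources used here do not give how the Mettl3 allele was made, whether each genotype is 1 clone, or the age of the cultures.

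A snoRNA host gene is transcribed as a long precursor whose introns hold snoRNAs. After splicing, the excised introns are trimmed to mature snoRNAs, which guide chemical modification of other RNAs in the nucleolus: box C/D snoRNAs direct 2′-O-methylation and box H/ACA snoRNAs direct pseudouridylation, mostly of ribosomal RNA. The spliced host transcript of several such genes is short-lived in the cytoplasm because it is translated at short upstream frames and degraded by nonsense-mediated decay. Gas5, named for growth arrest, is among the best studied hosts, and its RNA is known to accumulate when growth or translation stops. Chromatin RNA is rich in nascent transcripts and unspliced introns, so the snoRNA-bearing introns lie within what is measured here.

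RefSeq (GRCm38.p6, the assembly behind mm10) places Gas5 at chr1:161034601-161038539, Snhg1 at chr19:8723487-8726326, Snhg3 at chr4:132351933-132353686, Snhg5 at chr9:88521052-88522897, Snhg6 at chr1:9942025-9944118, Snhg8 at chr3:123507552-123508336 and Snhg12 at chr4:132308678-132311024. Each is annotated there as a long noncoding RNA. Gas5 overlaps Zbtb37, and Snhg6 overlaps Mcmdc2. RefSeq promoter entries were found for 6 of the 7 genes, all but Snhg6, and Gas5 has 2 annotated starts. The start regions are shown because an ATAC interval covered every one of them in all 12 libraries, as described further on. Each line gives 120 bases on the coding strand, 5′ to 3′, from 70 before the start base to 49 after it, from RefSeq GRCm38.p6. Capitals mark TATAA or TATATA between 50 and 15 bases before the start, on either strand, so that TATAA on the opposite strand reads as TTATA.
Gas5 start 1: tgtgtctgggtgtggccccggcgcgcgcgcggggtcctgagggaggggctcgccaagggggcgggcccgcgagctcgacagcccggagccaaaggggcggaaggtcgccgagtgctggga
Gas5 start 2: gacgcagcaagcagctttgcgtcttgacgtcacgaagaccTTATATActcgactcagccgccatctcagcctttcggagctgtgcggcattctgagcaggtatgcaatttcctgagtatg
Snhg1: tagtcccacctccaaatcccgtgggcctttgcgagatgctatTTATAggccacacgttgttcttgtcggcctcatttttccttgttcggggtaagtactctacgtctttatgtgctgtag
Snhg3: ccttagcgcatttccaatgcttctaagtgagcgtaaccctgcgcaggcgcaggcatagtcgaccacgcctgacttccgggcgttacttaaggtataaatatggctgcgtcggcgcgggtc
Snhg5: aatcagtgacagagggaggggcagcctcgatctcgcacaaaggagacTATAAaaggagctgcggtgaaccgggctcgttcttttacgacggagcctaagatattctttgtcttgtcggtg
Snhg8: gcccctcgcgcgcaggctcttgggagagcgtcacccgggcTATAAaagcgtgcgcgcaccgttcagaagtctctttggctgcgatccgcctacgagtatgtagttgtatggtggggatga
Snhg12: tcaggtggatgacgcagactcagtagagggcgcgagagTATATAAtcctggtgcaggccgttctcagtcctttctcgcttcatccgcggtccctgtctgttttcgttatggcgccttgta
The + strand genes are Gas5 (chr1:161034531-161034650 and chr1:161035096-161035215), Snhg1 (chr19:8723417-8723536) and Snhg12 (chr4:132308608-132308727). The − strand genes are Snhg3 (chr4:132353637-132353756), Snhg5 (chr9:88522848-88522967) and Snhg8 (chr3:123508287-123508406).

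TATAA or TATATA, searched on both strands, lay in that stretch at 5 of the 7 starts, with the first match 30 bases before the second start of Gas5, 28 before Snhg1, 23 before Snhg5, 30 before Snhg8 and 32 before Snhg12. Of 32817 RefSeq promoters of the same length, 5.72% held either motif there, and the 2 motifs can overlap. The stretch was chosen after the sequences had been seen. No match was found at the first start of Gas5 or at Snhg3, which says only that these letters were not in that stretch. Runs of pyrimidines were counted from their first C, leaving out any T before it. On the coding strand from 20 before to 49 after the start, a run of at least 6 was found at 3 starts: cctttc at the second start of Gas5, ctcttt at Snhg8 and cctttctc at Snhg12. Such a run was found in 44.7% of all promoters. A match is a description of the letters and not of a bound factor.

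RefSeq places 26 snoRNA genes inside the 7 hosts, and they take up 14.9% of the summed host length. Gas5 and Snhg1 hold 8 each, Snhg12 holds 4 (Snora16a, Snora44, Snora61 and Snord99), Snhg3 holds Snora73a and Snora73b, Snhg5 holds 2, Snhg6 holds Snord87 and Snhg8 holds Snora24. The named ones of Gas5 and Snhg1 are Snord47 and Snord22. Of these 26, 10 have an Ensembl identifier, the naming used in the files, and none of the 10 is listed in any of the 4 chromatin RNA files. Over all snoRNA genes with such an identifier, 6.12% of 637 that lie inside another gene are listed (95% exact binomial interval 4.39 to 8.27%), against 15.9% of 410 outside any other gene (12.5 to 19.8%). Those 10 thus have no value of their own here, and the other 16 could not be looked up. The sources used here do not say whether reads from a hosted snoRNA were counted for the host, and the host values below cannot be split into host and snoRNA.

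The chromatin RNA values are RPKM, reads scaled to gene length and to the reads of the library. The deposited numbers are exact enough to give back the read total of each library, at 27974123 and 28095727 for WT and KO ESC and 29412985 and 29844421 for WT and KO CM, and with it the whole reads and the gene length behind each value. The recovered lengths of the members other than Snhg3, 4118 bases for Gas5 and 2347 for Snhg12 for example, stand near or at those of the whole RefSeq gene (3939 and 2347), introns included. Mettl3 itself stood at 1.73 and 1.28 RPKM in WT and KO ESC and at 1.18 and 1.07 RPKM in WT and KO CM; the sources used here do not give the deleted part, so this does not check the labels. Of 8 ESC markers 7 were listed, and all 7 were at least 2-fold lower in CM WT than in ESC WT. The 8 cardiomyocyte markers summed to 0.717, 0.589, 9.35 and 1.47 RPKM in WT ESC, KO ESC, WT CM and KO CM, with Tnnt2 and Nkx2-5 not listed in either ESC library and at 0.103 and 0.0346 RPKM in CM KO. Genes of other cell types were also present in the CM libraries: the 6 fibroblast markers summed to 30.1 RPKM in CM WT and 8.08 in CM KO, the 5 visceral endoderm markers to 15.4 and 5.90, the 4 erythroid markers to 40.8 and 45.5, and the 4 endothelial markers to 2.51 and 3.88. The part of these cells in the differences below was not tested. In such bulk cultures fewer cells of a type and less RNA per cell cannot be told apart.

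Of the 7 hosts, 6 stood at 11.4 RPKM or more in every library, and the other, Snhg3, was nearly unread. Gas5 stood at 2395 and 3225 RPKM in WT and KO ESC and at 1246 and 2266 RPKM in WT and KO CM, which is 275926, 373164, 150921 and 278479 reads. It alone took 0.986%, 1.33%, 0.513% and 0.933% of the reads of the 4 libraries. Values given as 4 in a row follow that order. Snhg1 stood at 2665, 3216, 1408 and 2340 RPKM. By RPKM, Gas5 was the gene of rank 28, 27, 33 and 29 and Snhg1 of rank 26, 28, 31 and 27. For both genes the CM WT library was the lowest and the ESC KO library the highest. The 7 hosts together took 2.16% and 2.74% of reads in WT and KO ESC and 1.13% and 1.89% in WT and KO CM.

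Snhg8, the shortest member at 853 bases in the authors' annotation, stood at 1072, 1313, 502 and 973 RPKM. Snhg12 stood at 893, 948, 443 and 510 RPKM. Snhg8 in CM KO thus stood nearer to the ESC libraries than to CM WT, whereas Snhg12 was low in both CM libraries. Snhg6 stood at 325, 530, 232 and 243 RPKM, with ESC KO above the other libraries. Snhg5 was lower by level than these, at 35.5, 29.0, 11.4 and 15.9 RPKM, and was the 1 member whose highest library was ESC WT.

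Snhg3, host of Snora73a and Snora73b, which act in the processing of ribosomal RNA, was listed at 0.00630 and 0.00627 RPKM in WT and KO ESC and 0.0118 RPKM in CM KO, which is 1, 1 and 2 reads, and it was not listed in CM WT. Its neighbour Rcc1, the exchange factor of the Ran GTPase, lies on the low-coordinate side and had 36553, 30698, 20692 and 22149 reads. The length behind the Rcc1 values was 21687 bases, against 13832 in RefSeq, and the stretch from the RefSeq start of Rcc1 to the end of Snhg3 measures 21768 bases. The length behind Snhg3 was 5673 bases, against 1754 in RefSeq. The sources used here do not say how reads under more than 1 gene were assigned, so the level of Snhg3 RNA cannot be read from these files and its share in the reads of Rcc1 was not tested. Zbtb37 and Mcmdc2, which overlap Gas5 and Snhg6, had far lower values, Zbtb37 at 0.916 to 1.83 RPKM and Mcmdc2 at 0.0305 to 0.226 RPKM.

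The order of the levels was alike in the 4 libraries, with Snhg1 and Gas5 first, then Snhg8, Snhg12, Snhg6 and Snhg5, and Snhg3 last. Gas5 and Snhg1 changed places in ESC KO, where they stood at 3225 and 3216 RPKM. With 1 library per group the spread of a level is unknown, so no neighbours in this order can be said to differ beyond it. These levels are per base of the whole gene span.

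**Figure D1:**
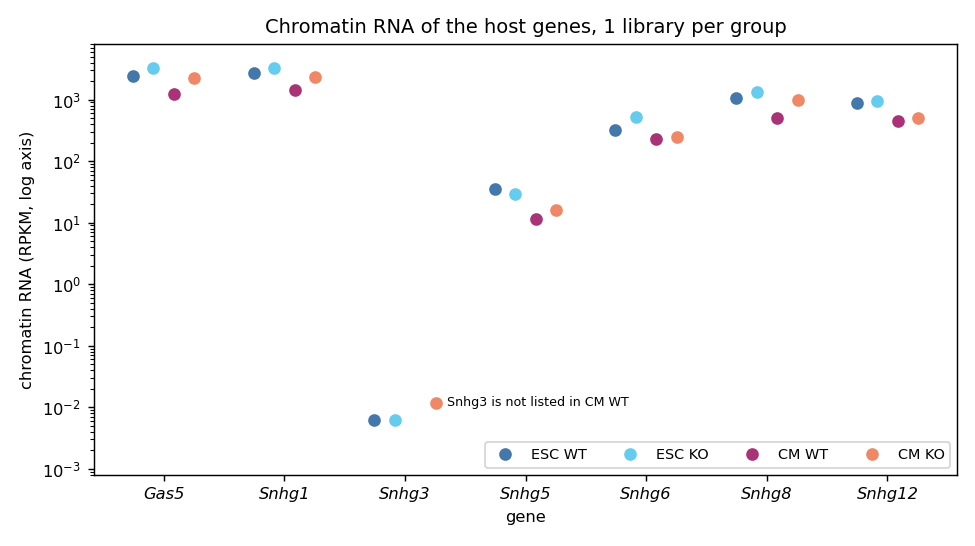
Chromatin RNA (RPKM, log axis) of the 7 host genes, with 1 point per library and 1 library per group. Of these, 6 genes lie between 11.4 and 3225 RPKM with CM WT lowest for each, while Snhg3 lies at or under 0.0118 RPKM and is not listed in CM WT.

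The first comparison asked how the hosts differ between differentiated and stem cells of wild type. All 6 hosts that had at least 1 RPKM were lower in CM WT than in ESC WT, where 69.2% of all genes compared had a difference below 0. Snhg5 stood at 0.320 of its ESC WT level (95% counting interval 0.291 to 0.350), Snhg8 at 0.468 (0.458 to 0.478), Snhg12 at 0.496 (0.489 to 0.503), Gas5 at 0.520 (0.517 to 0.523), Snhg1 at 0.528 (0.525 to 0.532) and Snhg6 at 0.713 (0.698 to 0.729). These intervals are Clopper-Pearson intervals on the recovered reads; they describe the counting of reads in 2 libraries and leave out any spread between cultures. A gene that reached 1 RPKM in either library was called when log2(RPKM + 1) differed by at least 1. Snhg5, Snhg8 and Snhg12 were called lower, 3 of 6, where 6.5% of 5865 genes were, and none was called higher, where 4.6% were. On that scale the median difference of the 6 hosts was -0.98, and that of all genes was -0.25. Relative to the median of all genes, the 6 hosts still had negative differences, from -1.33 for Snhg5 to -0.24 for Snhg6, and 1 of them, Snhg5, was called.

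The same comparison was made between the libraries labelled Mettl3 knockout. All 6 hosts were lower in CM KO than in ESC KO as well, where 53.4% of all genes were, with Snhg6 lowest at 0.459 (0.450 to 0.467), followed by Snhg12 at 0.538, Snhg5 at 0.547, Gas5 at 0.703, Snhg1 at 0.728 and Snhg8 at 0.741. Only Snhg6 was called, 1 of 6, where 3.67% of 5558 genes were called lower, and none was called higher, where 5% were. The median difference of log2(RPKM + 1) was -0.67 for the hosts and -0.04 for all genes. Gas5, Snhg1, Snhg5, Snhg8 and Snhg12 had smaller differences here than in wild type, with Snhg5 at -0.83 against -1.56 and Snhg12 at -0.89 against -1.01, and Snhg6 had a greater one; with 1 library per group the change of the difference was not tested.

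Between genotypes in stem cells, 5 of the 6 hosts were higher in ESC KO than in ESC WT and none was called. Snhg6 stood at 1.63 times its ESC WT level (1.60 to 1.66), Gas5 at 1.35 (1.34 to 1.35), Snhg8 at 1.22, Snhg1 at 1.21 and Snhg12 at 1.06 (1.05 to 1.07). Snhg5 was lower, at 0.816 (0.762 to 0.874). Over all 5240 genes in this comparison 1.49% were called higher and 0.649% lower, and 30.6% had a difference above 0. The median difference was 0.28 for the hosts and -0.09 for all genes.

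Between genotypes in the differentiated cultures, all 6 hosts were higher in CM KO than in CM WT and again none was called. Snhg8 stood at 1.94 times its CM WT level (1.90 to 1.98), Gas5 at 1.82 (1.81 to 1.83), Snhg1 at 1.66 (1.65 to 1.67), Snhg5 at 1.40 (1.26 to 1.55), Snhg12 at 1.15 (1.13 to 1.17) and Snhg6 at 1.05 (1.03 to 1.07). Over all 5170 genes 2.11% were called higher and 1.37% lower, and 72.6% had a difference above 0. The median difference was 0.59 for the hosts and 0.13 for all genes. Relative to that median, 5 hosts kept a positive difference and Snhg6 turned to -0.06. The marker sums given above differ between these 2 libraries, with cardiomyocyte and fibroblast genes lower in CM KO and ESC markers at 14.2 against 8.22 RPKM, and their part in the host values was not tested. The 4 comparisons share libraries, so they are not independent of one another.

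**Figure D2:**
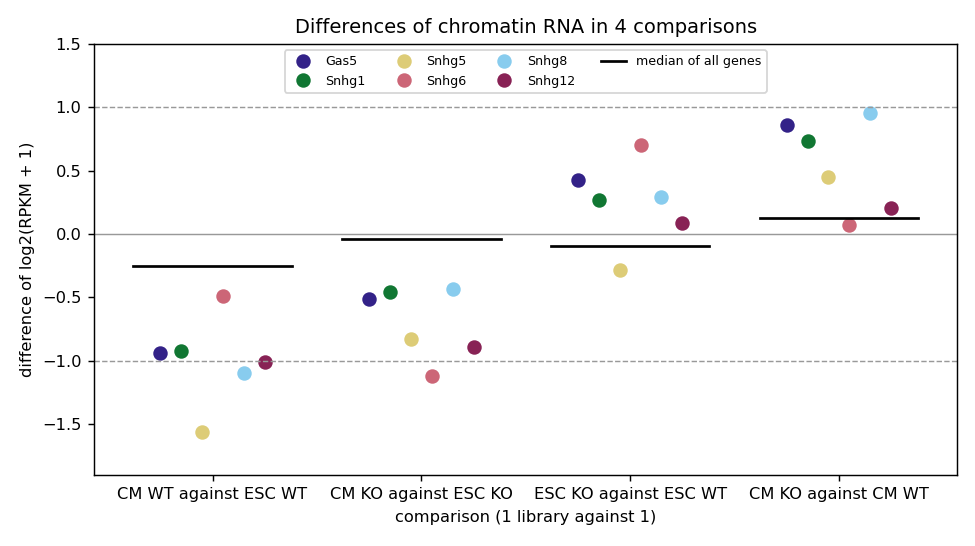
Difference of log2(RPKM + 1) for 6 host genes in the 4 comparisons, each of 1 library against 1; black bars mark the median of all genes and dashed lines the call limits of 1 and -1. All 6 points lie below the bar of all genes in both CM against ESC comparisons, and 5 of 6 lie above it in both KO against WT comparisons.

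Across the 4 libraries Gas5, Snhg1 and Snhg8 had the patterns most alike among the hosts. Likeness was measured as the Euclidean distance between the 4 values of log2(RPKM + 1) after each gene was centred on its mean, and it was 0.12 for Gas5 with Snhg8, 0.15 for Gas5 with Snhg1 and 0.17 for Snhg1 with Snhg8. The other pairs of hosts lay between 0.40 and 0.85. Of 6267 genes with at least 1 RPKM in any library, the 3 nearest to Gas5 were Asns (asparagine synthetase), Snhg8 and Dnttip2, and the 3 nearest to Snhg1 were Dnttip2, Ptcd3 and Snora17. Asns stood at 3.72, 5.89, 1.70 and 3.93 RPKM. Nearest to Snhg8 were Gm22265, Gas5 and Nop58, a core protein of box C/D snoRNPs at 51.9, 54.6, 21.4 and 42.1 RPKM. Nearest to Snhg5 were Gtsf1l, Gm17067 and Enah, nearest to Snhg6 were Aqp3, Gm27607 and Arl14epl, and nearest to Snhg12 were 2500002B13Rik, Gm24200 and Rbbp5. With 4 points per gene such likeness is a description only.

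Other snoRNA hosts were set beside these genes. Of 14 other noncoding hosts 11 were listed and 10 passed the filter; 9 of the 10 had a negative difference in CM WT against ESC WT, and Snhg20, Epb41l4aos, Dancr and Snhg17 were called lower and Snhg18 higher. Zfas1, the most abundant of them, stood at 1595, 1843, 889 and 1886 RPKM, and it was the 1 gene of this list called higher in CM KO against CM WT. Of 39 protein-coding hosts, 36 had a negative difference in CM WT against ESC WT, with 9 called lower and a median of -0.80. In CM KO against CM WT 31 of the 39 had a positive difference, with none called and a median of 0.34. Over all genes 69.2% had a negative difference and 6.5% were called lower in the first of these comparisons, and 72.6% had a positive difference in the second, a share near that of the protein-coding hosts. Among those called lower were Hspa8, a heat shock cognate chaperone, at 2081 in ESC WT and 939 RPKM in CM WT, and Taf1d, a factor of RNA polymerase I transcription, at 17.7 and 7.04 RPKM. The 6 hosts thus had differences on the same side as most genes of both lists in these comparisons, against medians of all genes of -0.25 and 0.13.

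Genes for the proteins that bind snoRNAs were set beside the hosts as well. Of 18 genes for snoRNP proteins and their assembly, 16 passed the filter, all 16 had a negative difference in CM WT against ESC WT, where 69.2% of all genes had, and 5 (Nop10, Nop58, Nop56, Nhp2 and Dkc1) were called lower, where 6.5% were. Nop10, a small box H/ACA protein, stood at 5.93, 4.95, 1.80 and 4.51 RPKM, and Dkc1, the pseudouridine synthase dyskerin, at 3.61, 3.37, 1.29 and 1.76 RPKM. Nop56, Nop58 and Dkc1 are themselves snoRNA hosts and stand on both lists. In ESC KO against ESC WT this list had 13 of 16 genes below 0 and a median of -0.16, near the 69.4% below 0 and the median of -0.09 over all genes. Of 10 genes of nonsense-mediated decay, the pathway that degrades several host transcripts, none was called in any of the 4 comparisons. Only 7 or 8 of them passed the filter in a comparison. Over all genes between 0.649% and 6.5% were called in a given direction, so nothing is read from the absence of calls among so few.

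Some snoRNA and small Cajal body RNA genes had values of their own. The 9 taken here are those with a symbol of Snora, Snord or Scarna and a number, a list made after their values had been seen. They are only part of the listed snoRNA genes, of which 39 lie inside another gene and 65 outside. Of the 9, 8 were lower in CM WT than in ESC WT and all 9 were higher in CM KO than in CM WT. The medians were -0.77 and 0.33 on the log2(RPKM + 1) scale. Over all genes 69.2% were lower in the first comparison and 72.6% higher in the second, and because of how the 9 were chosen nothing is read from their counts. Snord118 stood at 30428, 36008, 24105 and 28121 RPKM, Snord13 at 40353, 46308, 23678 and 32238 RPKM, and Snora17 at 5181, 5722, 2484 and 4045 RPKM. How much of the host values comes from reads of the hosted snoRNAs was not tested.

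m6A was listed at 11 distinct positions in the hosts. The deposited lists give a gene, a position and the 4 bases there, 1 list per group, with 16983 and 18076 distinct positions in WT and KO ESC and 25617 and 13962 in WT and KO CM. The 7 hosts had 5, 9, 8 and 3 of these positions, in 4, 5, 5 and 3 genes, and none lay in Snhg3 or Snhg6. Of genes with at least 1 RPKM in the same condition, 65.3%, 67.9%, 75.8% and 58.6% held a position, and of genes with at least 100 RPKM 24.2%, 30.7%, 29.1% and 27.3%. A list shows where a position was called and not how much of the RNA was methylated.

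Of the 11 distinct positions in the hosts, 1 was on all 4 lists, 5 were on 3 lists, 1 was on 2 and 4 were on 1. No position was on both WT lists and absent from both KO lists, and 9 of the 11 were on at least 1 KO list. The same counts over all listed positions were not computed, so nothing about the hosts is read from them. The position on all 4 lists was AGAC at 1332 bases from the 5′ end of Snhg12. Positions count from 0 at the 5′ end of the gene in the authors' annotation, introns included, to the first of the 4 bases. This was checked against RefSeq promoter sequences, where the listed bases stood at that offset for 50.5% of 184 positions on + strand genes and 44.2% of 251 on − strand genes, and at no other shift of up to 3 bases for more than 2.72%.

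The length behind the Snhg12 values equals that of the RefSeq gene, and its positions were placed on the assumption that both share their ends. The adenosine of the position at 1332 is base 132310012 of chromosome 4, inside Snora44, a box H/ACA snoRNA at chr4:132309953-132310069. The second Snhg12 position, AGAC at 1552, was on the ESC KO list only and falls at base 132310232, outside the hosted snoRNAs. In Snhg8 the position GGAC at 353, on the ESC KO and CM WT lists, falls inside Snora24 (chr3:123507937-123508066) whether the authors' gene shares its 5′ or its 3′ end with RefSeq. Snora24 is the only snoRNA of Snhg8.

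The remaining hosts, like Snhg8, have another length in the authors' annotation than in RefSeq, and the exact bases of their positions were not placed on the genome. Gas5 had AAAC at 3710 on the ESC KO, CM WT and CM KO lists and GAAC at 3914 on the ESC WT, ESC KO and CM WT lists, at 90.1% and 95.0% of its length. It also had GGAC at 1452 in ESC KO, and GAAC at 2273 and AAAC at 3010 in CM WT. Snhg1 had AGAC at 1914 on every list but CM KO and GAAC at 2452 on every list but CM WT. Snhg5 had AGAC at 1761, at 93.7% of its length, on every list but CM KO. Its adenosine falls at base 88521134 or 88521168 of chromosome 9 if the authors' gene shares its 5′ or its 3′ end with RefSeq. Both bases lie outside the snoRNAs hosted by Snhg5. The CM KO list, the shortest of the 4, held 1 position each in Gas5, Snhg1 and Snhg12.

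**Figure D3:**
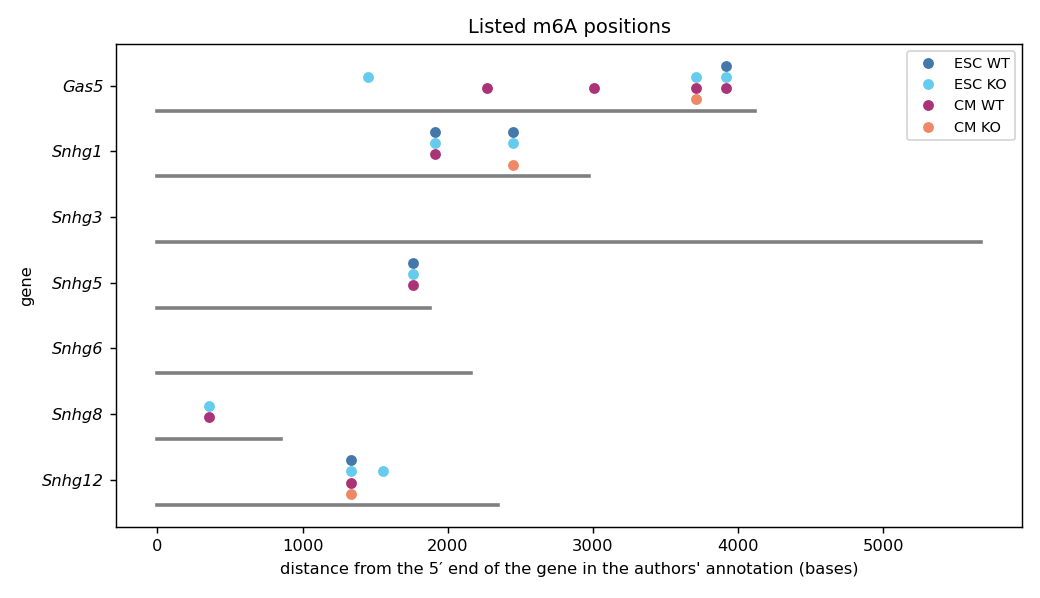
Listed m6A positions along the 7 host genes, in bases from the 5′ end of the gene in the authors' annotation; grey lines give the length of each gene and colours the 4 lists. The position at 1332 in Snhg12 is on all 4 lists, and Snhg3 and Snhg6 have none.

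ATAC-seq asked whether the chromatin at the hosts was open. The 12 libraries had between 70132 and 119307 called intervals, with 107125 to 119307 in the 6 ESC libraries and 70132 to 94617 in the 6 CM libraries, so every CM library had fewer. The third CM KO library is labelled as RNA, but its file is a peak list like the others. An interval covered the annotated start in 12 of 12 libraries at each of the 6 hosts with a promoter entry, where 37.5% of 32812 annotated starts had one in all 12. Both starts of Gas5 lay under the same interval, which spanned chr1:161034259-161035566 over all libraries and also overlaps Zbtb37. For Snhg6 an interval at one end of the gene, within chr1:9943698-9944588, was called in all 12. Snhg3, with at most 2 reads of chromatin RNA in a library, had an interval over its start in all 12 libraries as well, of 240 to 447 bases. The longest of these start intervals lay at Gas5, at 909 to 1298 bases, and at Snhg8, at 858 to 1095 bases. By the authors' fold of the summit over local background, a value of each list alone, these intervals reached 7.66 to 10.7 at Snhg8, 4.95 to 8.50 at Snhg1 and 2.91 to 5.34 at Gas5.

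Around the 7 hosts, in the gene and 2 kb on each side, 19 separate regions were called in any library and 8 of them in all 12. No region was called in CM and never in ESC, and 4 were called in ESC and never in CM. Of these 4, 1 was called in 6 of 6 ESC and 0 of 6 CM libraries, and it lies beyond the 3′ end of Snhg5 at chr9:88519492-88520934, 1963 to 3405 bases from the start. Every CM library had fewer called intervals than every ESC library. The share of such regions around all genes was not computed, so nothing about the hosts is read from these region counts. A region beyond the 3′ end of Snhg8, chr3:123506855-123507151, was called in 3 of 3 ESC WT libraries and in 0 of the 9 others. The whole Snhg8 window had a mean covered length of 1682 bp in ESC WT and 1445 bp in ESC KO. With the same number of intervals taken from each library, these means were 1434 and 1445 bp and the groups overlapped. The difference at this window was thus not seen in that setting, and the reason was not tested.

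**Figure D4:**
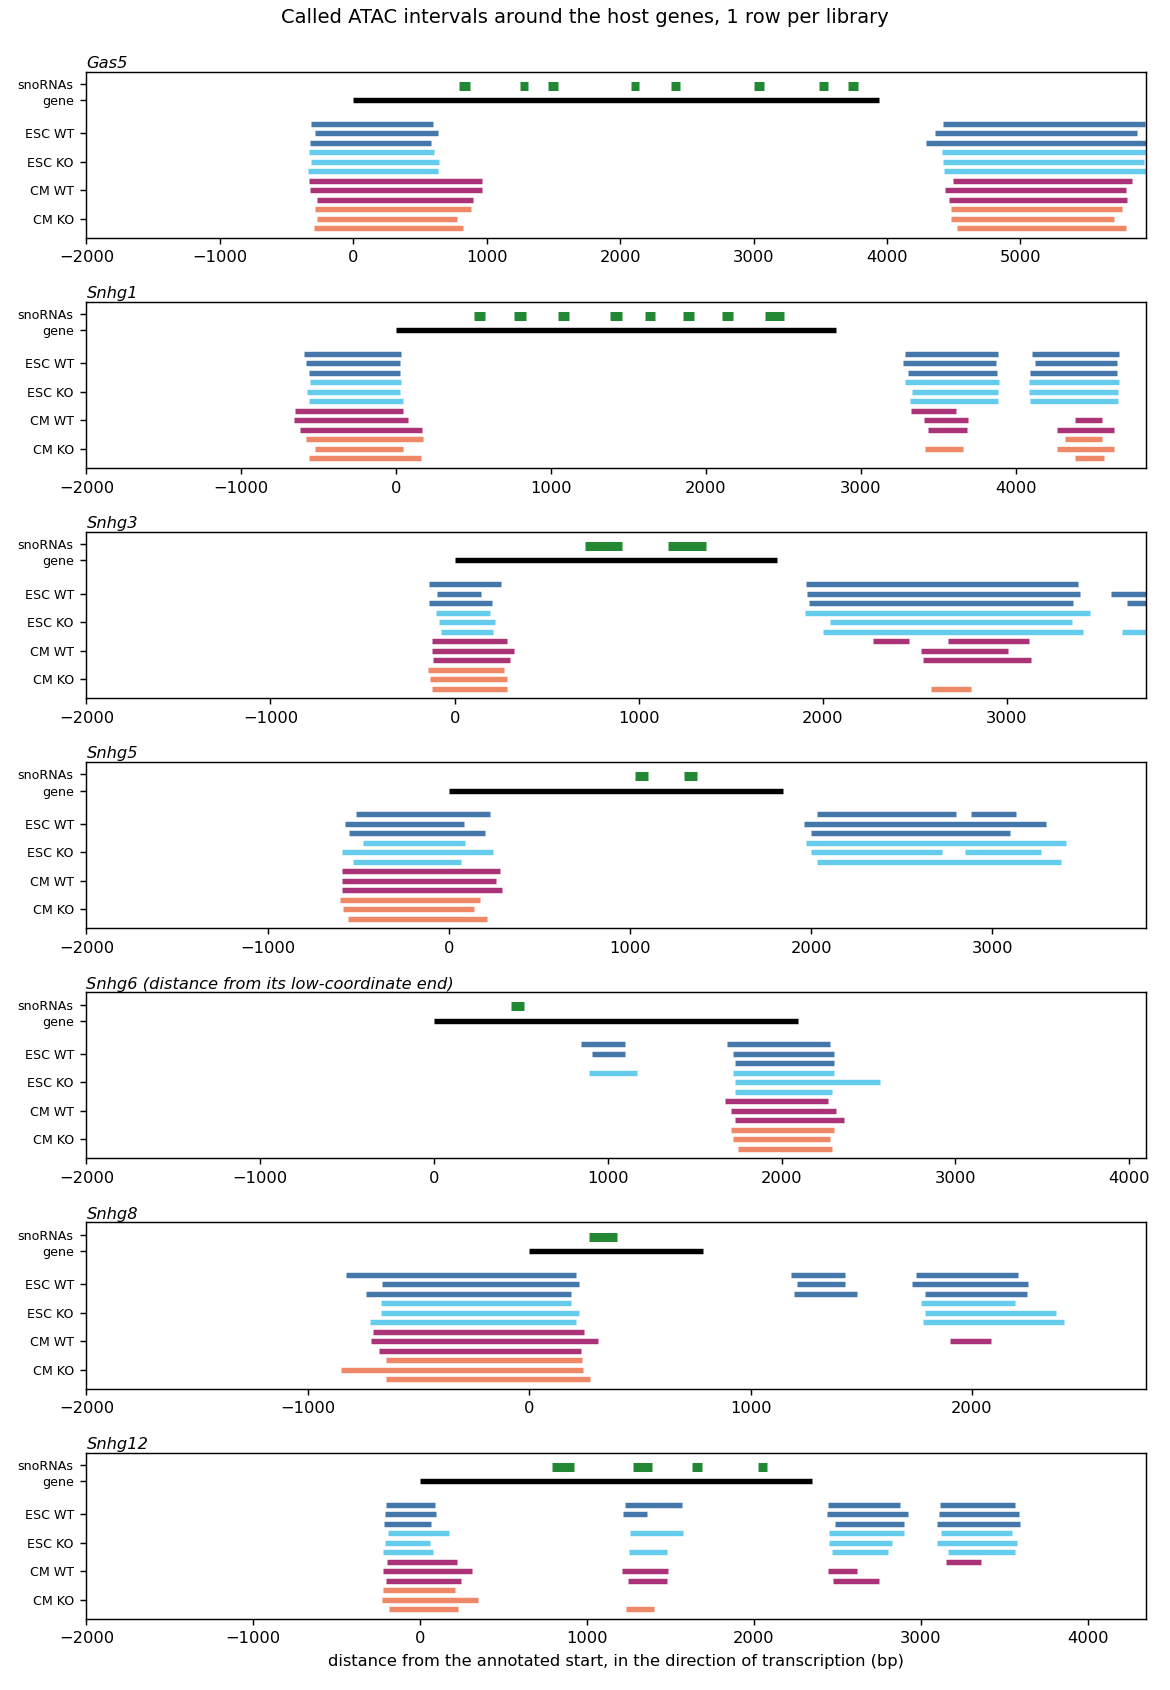
Called ATAC intervals in the 7 host genes and 2 kb on each side, as distance in bp from the annotated start along transcription (from the low-coordinate end for Snhg6), with 1 row for each of the 12 libraries, the gene in black and RefSeq snoRNAs in green. Intervals over the starts recur in all 12 rows, and the interval beyond the 3′ end of Snhg5 is present in the 6 ESC rows and in no CM row.

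The length under called intervals in these windows was shorter in CM than in ESC at 5 hosts. Snhg5 had 1756, 1993 and 1852 bp in the ESC WT libraries, 2001, 1975 and 1952 bp in ESC KO, 876, 852 and 884 bp in CM WT and 775, 723 and 767 bp in CM KO. Every CM library was below every ESC library, and the mean difference was -1109 bp. Snhg3 had 1869, 1911 and 1879 bp in the WT and 1844, 1622 and 1822 bp in the KO libraries of ESC, and 1047, 920 and 1004 bp in the WT and 417, 419 and 624 bp in the KO libraries of CM. The 4 groups of Snhg3 did not overlap, and the mean difference of CM from ESC was -1086 bp. Snhg12, Snhg1 and Snhg8 had mean differences of -656, -640 and -566 bp.

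For each of these 5 hosts the adjusted p was 0.0136 (exact permutation of cell type within genotype, two-sided, p = 0.005, the smallest that its 400 arrangements allow; Benjamini-Hochberg over 33087 genes). Shorter windows were common: 50.4% of all genes passed this test in that direction and 1.89% in the other, so the 5 of 7 hosts stand beside a background of about the same share. When the same number of intervals, 70132, was taken from each library, the 5 hosts still passed with an adjusted p of 0.0219 in the same exact permutation test. In that setting 9715 of 30661 genes passed in 1 or the other direction, against 17306 of 33087 with all intervals. Without the third CM KO library all 5 passed as well, where 15621 of 33001 genes passed in 1 or the other direction. Snhg6 differed by -155 bp (adjusted p = 0.113, exact permutation test) and Gas5 by 5.17 bp (adjusted p = 1, exact permutation test). Gas5 had 2433, 2444 and 2558 bp in the WT and 2460, 2477 and 2487 bp in the KO libraries of ESC, and 2635, 2639 and 2505 bp in the WT and 2457, 2276 and 2378 bp in the KO libraries of CM, and its cell types overlapped. Whether the 3 libraries of a group are separate cultures is not stated in the labels, and these p-values then measure only the spread between libraries, which may be technical.

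The shorter lengths lay in the flanks and not inside the genes. In the flanks Snhg5 had 1697 ± 194 and 1841 ± 98.3 bp (SD, n = 3) in WT and KO ESC and 592 ± 0 and 578 ± 22.7 bp in WT and KO CM, while inside the gene it had 170 ± 76.6, 135 ± 96.5, 279 ± 16.7 and 177 ± 36.0 bp. When the gene alone was measured, Gas5, Snhg1, Snhg3 and Snhg8 had a longer covered length in CM, by 268, 79.5, 89.0 and 50.3 bp, with adjusted p-values of 0.0148, 0.0252, 0.0148 and 0.0148 in the same exact permutation test. Over all 28424 genes covered in this way 2.07% passed as longer and 45.1% as shorter. Inside Gas5 the interval at the start covered 606 ± 28.2 and 628 ± 22.3 bp (SD, n = 3) in WT and KO ESC and 943 ± 39.6 and 828 ± 55.4 bp in WT and KO CM. The flanks of Gas5 stood at 1872 ± 88.6, 1847 ± 13.8, 1650 ± 36.7 and 1542 ± 38.0 bp in the same order, while its whole window differed by 5.17 bp between the cell types. No host was shorter inside the gene with a passing test.

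**Figure D5:**
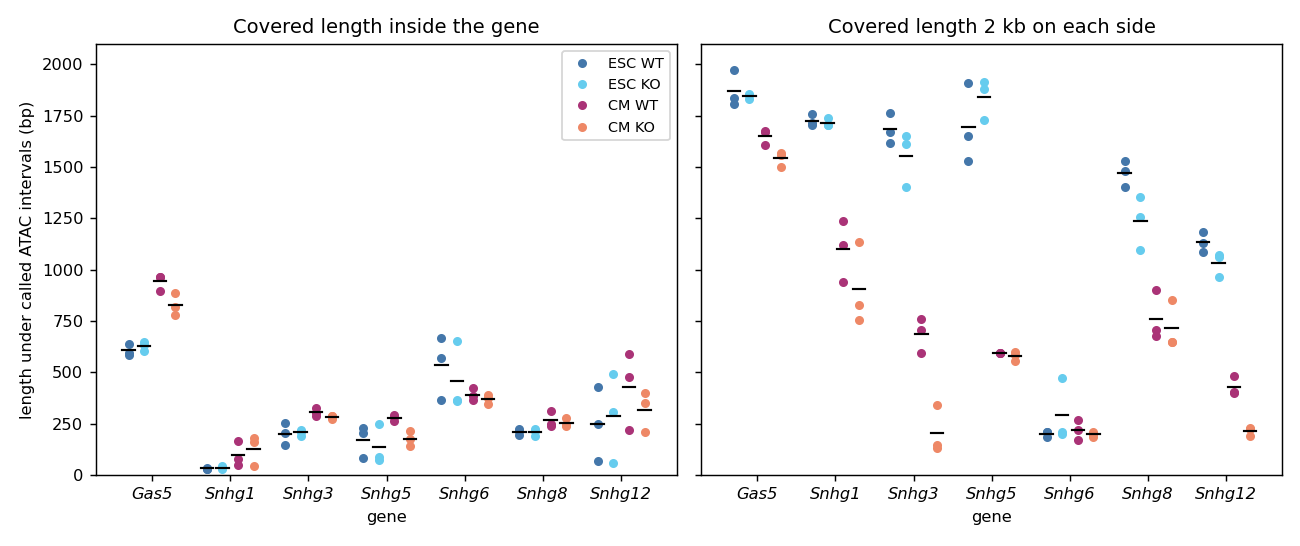
Length under called ATAC intervals (bp) inside each host gene and in the 2 kb on each side, with 1 point per library, black bars for the mean of 3 libraries, and colours for the groups. In the flanks the CM points of 5 genes (Snhg1, Snhg3, Snhg5, Snhg8 and Snhg12) lie well below the ESC points, while inside Gas5 the CM points, at 777 to 966 bp, lie above the ESC points at 585 to 646 bp.

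Between genotypes no host passed the test, and none of 33087 genes did (0% in either direction; lowest adjusted p 0.153, exact permutation of genotype within cell type, two-sided). At an unadjusted p of at most 0.05 Snhg3 alone of the 7 differed, with a mean difference of KO from WT of -314 bp (p = 0.005, adjusted p = 0.153, exact permutation test). Its CM KO libraries had 417, 419 and 624 bp and its CM WT libraries 1047, 920 and 1004 bp. With the same number of intervals from each library this difference was -138 bp (adjusted p = 0.519, exact permutation test). With all intervals, Snhg3 was at the smallest p that the 400 arrangements allow and at the lowest adjusted p of any gene. The genotype test thus cannot decide whether the hosts differ. Pair by pair, with 3 libraries against 3 and a smallest possible p of 0.1, 4 of 7 hosts (Gas5, Snhg3, Snhg5 and Snhg12) had shorter lengths in CM KO than in CM WT with no overlap, where 26.5% of genes had, and 2 of 7 (Snhg3 and Snhg8) in ESC KO against ESC WT, where 10.9% had. None was longer with no overlap, where 3.48% and 9.25% of genes were. With the same number of intervals from each library the shorter hosts fell from 4 to 2 in CM KO against CM WT (Gas5 and Snhg5, background 19.4%) and from 2 to 0 in ESC KO against ESC WT (background 11%). In the comparisons of CM with ESC, 5 of 7 hosts in wild type (background 45.8%) and 6 of 7 in the knockout (background 60.7%) were shorter with no overlap, and none was longer (background 7.81% and 1.3%). The KO effect differed between cell types at no host after adjustment, with the lowest adjusted p at Snhg5 (-225 bp, p = 0.015, adjusted p = 0.275, exact permutation test).

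The chromatin RNA and the intervals of single hosts can be read side by side. Gas5, Snhg5 and Snhg12 were higher in chromatin RNA in CM KO than in CM WT, at 1.82, 1.40 and 1.15 times, and had shorter covered lengths there, with differences of -223, -116 and -326 bp. With the same number of intervals from each library these differences were -223, -116 and -106 bp, and the Snhg12 libraries of the 2 genotypes then overlapped. Snhg8, the host with the highest RNA ratio in that comparison at 1.94, had a start interval in all 12 libraries and overlapping covered lengths, at 957, 1212 and 914 bp in CM WT and 883, 1095 and 925 bp in CM KO. No relation between the 2 measures was tested.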

How the data were processed

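Per the labels, the series holds 12 ATAC-seq libraries, 4 ChrRNA-seq libraries and 4 Chrm6A-seq lists. Without roles or versions, the build mm10 and the tools HISAT2, MACS2, Bowtie, Picard and cutadapt are named in the submitters' processing notes. The members and the gene lists were chosen with earlier results of these data known. The authors deposited, for ATAC-seq, 1 peak list per library with a score, the fold (a ratio) of the summit over local background, and its −log10 p-value and −log10 q-value. The sources used here do not give reads per library, so only where an interval was called was compared. One CM KO library, replicate 3, is labelled as RNA but its file is a peak list like the others; it was used as ATAC-seq, and results without it are among the alternatives.

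The deposited ChrRNA-seq values are RPKM per Ensembl gene, without a header; the sources used here do not give the annotation or the strandedness, and 99.5% of identifiers matched a symbol. Each RPKM is whole reads over gene length and library total. The total was the whole number given by more genes than any other, with RefSeq lengths (204 to 230 genes, any other number at most 2). Reads and length then followed as a fraction, for 83.8% of 16334 genes listed in all 4 files, within a relative tolerance of 3e-14. The authors' m6A lists hold a gene, a position and 4 bases, with no score, and repeated rows were counted once.

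Differences are on log2(RPKM + 1), a scale that compresses the change of genes with low values. Covered length is the bp under intervals in the gene plus 2 kb. It was compared by exact permutation, 3 libraries against 3, and by permuting within the other factor, with Benjamini-Hochberg adjustment over 33087 genes; the script was tested on simulated data. Named genes were the members, their hosted snoRNAs, the 3 nearest genes of each member and up to 4 called genes of each list with the largest differences; the separately listed snoRNAs, overlapping genes and other levels given fall outside that rule and were named after their values were seen. Python 3.11.15, numpy 2.4.6, pandas 2.3.3 and scipy 1.17.1 were used. Some values of overlapping genes are not reported here.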

Additional observations from a re-analysis of the deposited data

Results flagged for a closer look

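Snhg5 was the 1 host whose chromatin RNA stood on opposite sides of 1 in the 2 genotype comparisons, with counting intervals that leave out 1 in both. KO stood at 0.816 times WT in ESC (35.5 RPKM in ESC WT and 29.0 in ESC KO) and at 1.40 times WT in CM (11.4 RPKM in CM WT and 15.9 in CM KO). The log2(RPKM + 1) difference in CM minus that in ESC was 0.73. With 1 library per group this difference was not tested.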

How the results depend on the processing

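Chromatin RNA has no replicates, and its intervals cover counting error only. With libraries scaled to a median difference of 0, the count of hosts called lower in CM WT against ESC WT went from 3 to 1; the other 23 of 24 alternatives for such counts stayed within 1.5 times. The 2 alternatives for m6A were not run, because positions are listed inside genes only and carry no score. An interval over the start was called in all 12 libraries under both alternatives.

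With the gene alone in place of its window, CM against ESC turned to 79.5 (Snhg1), 89.0 (Snhg3), 75.0 (Snhg5), 50.3 (Snhg8) and 107 bp (Snhg12), hosts past the test went from 0 to 4 longer and from 5 to 0 shorter, and KO against WT turned to 17.8 bp at Snhg1. Counts without overlap then became 5 longer and 0 shorter in CM WT against ESC WT, 3 longer and 0 shorter in CM KO against ESC KO, 0 shorter in ESC KO against ESC WT and 2 shorter in CM KO against CM WT. With 5 kb flanks Gas5 turned to -136 bp in CM against ESC and Snhg6 to 98.0 bp in KO against WT, and ESC KO against ESC WT had 2 longer and 1 shorter. The share of all genes without overlap was not computed for the gene alone or for 5 kb flanks. Nothing about the hosts is read from those counts. With the same number of intervals per library, KO against WT turned to 34.0 bp at Snhg1 and 16.3 bp at Snhg6, and shorter counts became 0 in ESC KO against ESC WT and 2 in CM KO against CM WT.

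With the replicate number as a block, the 5 shorter hosts in CM against ESC became 0 past the threshold, at an adjusted p of 0.0701 by exact permutation of signs over 64 arrangements. That was the lowest adjusted p of any gene in this setting, and 0 of 33087 genes passed. The setting thus cannot decide whether these hosts differ. Deviations of same-numbered libraries correlated at -0.18 to 0.18, and 3 of 12 pairs exceeded 0.1. There was no reference for libraries known to be paired, so this does not settle whether the replicate numbers pair the libraries. Without 1 library at a time, CM against ESC ranged from -16.5 to 28.8 bp at Gas5, and KO against WT from -31.1 to 28.2 bp at Snhg5 and from -52.5 to 35.6 bp at Snhg6, all within results that did not pass. The 5 shorter hosts passed without any 1 library, and Snhg6 passed too without ESC WT replicate 3 (adjusted p = 0.0240) or ESC KO replicate 3 (adjusted p = 0.0412), both by exact permutation. In these settings from 15498 of 32968 to 17378 of 32846 genes passed in 1 or the other direction. Hosts without overlap ranged from 0 to 1 longer in CM WT against ESC WT and from 0 to 1 longer in ESC KO against ESC WT, with no share of all genes computed beside them. The cause of these changes was not tested.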
